A study of Drosophila melanogaster with 2 samples.

Results

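The genes of the mitochondrial ribosome were taken as the protein-coding genes whose symbol begins with mRpS or mRpL and a number, which gave 73 mRp genes of 13945 protein-coding genes on the main chromosome arms: 26 of the small subunit and 47 of the large subunit. Binding of Medea, encoded by Med, had been mapped in Drosophila melanogaster by chromatin immunoprecipitation and sequencing. Medea is the fly's common-mediator Smad, the protein that joins receptor-activated Smads in the nucleus when Dpp or activin signals arrive. The only group was whole embryos of both sexes, pooled, from a transgenic line that carries eGFP at the C terminus of Med, collected at 0 to 24 h and precipitated with an antibody against GFP. It held 2 biological replicates, numbered 2 and 3, whose peaks were called against 1 control file, so there was no second condition and no untagged line among the samples used here. Occupancy is therefore an average over all tissues and stages of embryogenesis, and of the tagged protein only.

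The mitochondrial ribosome translates the few proteins encoded by mitochondrial DNA, all of them in the fly subunits of the respiratory chain and the ATP synthase. Its RNAs come from mitochondrial DNA, but every one of its proteins is encoded in the nucleus, so a large set of short, scattered genes has to be expressed together. The small subunit decodes the message and the large subunit joins the amino acids. Proteins with low numbers have counterparts in the bacterial ribosome, while many of those with higher numbers have none.

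Many mRp genes start close to a gene on the other strand that runs the opposite way, an arrangement called head to head, and most Medea summits at mRp genes lay in the short stretch between both start sites. The stretches of 7 pairs are shown because they carry that finding: 5 with a Medea summit, among them the strongest and the weakest available here, and 2 without. Each is read from the Release 6 genome (dm6), 5′ to 3′ on the strand of the mRp gene, so that the neighbour starts just before the first base and the mRp gene just after the last. Capitals mark the E-box CAGCTG and the DRE TATCGATA, both of which read the same on either strand.
mRpS10 and Art3, chr3R:15229409-15229664, plus strand: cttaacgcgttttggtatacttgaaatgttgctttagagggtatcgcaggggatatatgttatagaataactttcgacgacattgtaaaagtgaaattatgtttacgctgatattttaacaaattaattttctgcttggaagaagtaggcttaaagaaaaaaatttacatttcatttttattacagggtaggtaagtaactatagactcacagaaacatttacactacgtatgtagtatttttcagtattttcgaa
mRpS2 and Mon1, chr2L:4850420-4850640, minus strand: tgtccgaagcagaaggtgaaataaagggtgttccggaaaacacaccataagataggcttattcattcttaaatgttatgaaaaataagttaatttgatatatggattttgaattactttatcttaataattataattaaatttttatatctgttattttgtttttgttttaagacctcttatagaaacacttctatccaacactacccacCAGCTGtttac
mRpL21 and rept, chr3L:19255062-19255339, minus strand: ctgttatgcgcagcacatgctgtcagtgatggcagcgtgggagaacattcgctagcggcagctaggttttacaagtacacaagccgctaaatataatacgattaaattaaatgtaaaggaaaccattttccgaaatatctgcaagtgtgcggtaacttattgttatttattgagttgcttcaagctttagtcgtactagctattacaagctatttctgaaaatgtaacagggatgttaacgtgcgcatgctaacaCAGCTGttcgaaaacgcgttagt
mRpL32 and qless, chr3R:31252609-31252871, plus strand: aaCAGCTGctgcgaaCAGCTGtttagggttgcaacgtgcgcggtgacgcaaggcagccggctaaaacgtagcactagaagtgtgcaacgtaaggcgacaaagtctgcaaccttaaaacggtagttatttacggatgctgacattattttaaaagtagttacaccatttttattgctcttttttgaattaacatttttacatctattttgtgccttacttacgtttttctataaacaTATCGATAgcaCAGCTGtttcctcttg
mRpL48 and CG17660, chr2L:1710422-1710461, plus strand: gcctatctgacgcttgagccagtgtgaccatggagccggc
mRpL39 and Prosbeta2, chr3L:14999667-14999950, minus strand: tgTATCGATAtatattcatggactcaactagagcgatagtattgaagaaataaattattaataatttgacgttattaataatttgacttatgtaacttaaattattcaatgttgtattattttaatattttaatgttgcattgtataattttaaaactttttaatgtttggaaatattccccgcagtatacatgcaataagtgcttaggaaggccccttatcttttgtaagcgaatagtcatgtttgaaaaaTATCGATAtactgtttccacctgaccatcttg
mRpS18A and CG31460, chr3R:8562594-8562672, minus strand: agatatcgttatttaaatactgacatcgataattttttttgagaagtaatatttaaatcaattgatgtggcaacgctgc

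In the mRpS10 and Art3 stretch of 256 bases the summit was base 111, and neither motif occurred. In the mRpS2 and Mon1 stretch the summit was base 18, beside the start of Mon1, while the E-box stood at the other end, beside the start of mRpS2. The mRpL21 and rept stretch had the same layout, with the summit at base 57 and 1 E-box next to the mRpL21 start. The mRpL32 and qless stretch held 3 E-boxes, at both ends, with the summit at base 109 between them. The mRpL48 and CG17660 stretch is only 40 bases long and had its summit at base 21. No summit of the optimal list lay within 1000 bp of either mRpL39 or mRpS18A, although the mRpL39 stretch, shared with the proteasome gene Prosbeta2, has 2 DREs.

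More than 1 in 2 mRp genes had a Medea summit near a start site, a larger share than among other genes. Each summit was counted here for every gene in reach. The excess was not seen when each summit was given to its nearest start site only (20.5%, against 22.3% of other genes). A promoter summit is here a peak summit within 1000 bp of an annotated transcription start site (TSS), and a gene that has one is called occupied. In the optimal list of 5867 peaks, which the authors thresholded for reproducibility over both replicates, 38 of 73 mRp genes were occupied (52.1%, Wilson 95% interval 40.8 to 63.1%), against 4322 of 13872 other protein-coding genes (31.2%, 30.4 to 31.9%). Over all 13945 genes the share was 31.3%, so the mRp share was 1.67 times that of the other genes.

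The replicates taken alone gave the same picture. Among the 5867 strongest peaks of replicate 2, 40 mRp genes (54.8%) and 29.6% of other genes were occupied, with 29.7% over all genes and a ratio of 1.85. Among as many peaks of replicate 3, 36 mRp genes (49.3%) and 31.7% of other genes were occupied, with 31.8% over all genes and a ratio of 1.56. In all 3 lists the interval of the mRp share lay above the share of other genes. These intervals cover counting error only, genes that share a summit are not independent, and no test was made of the set.

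The calls were largely of the same genes: 33 mRp genes were occupied in all 3 lists and 30 in none. The optimal list and replicate 3 had mRpL48 and mRpL55, and the optimal list and replicate 2 had mRpL35, mRpS24 and mRpS26. Replicate 2 alone had mRpL17, mRpS18A, mRpS22 and mRpS30, and replicate 3 alone had mRpS18C.

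The subunits were occupied in similar shares, and their order was not the same in each list. Of the small subunit genes 12 of 26 were occupied (46.2%), namely mRpS2, mRpS6, mRpS7, mRpS10, mRpS11, mRpS16, mRpS18B, mRpS21, mRpS23, mRpS24, mRpS26 and mRpS31. Of the large subunit genes 26 of 47 were occupied (55.3%). Replicate 2 had 15 and 25 of them and replicate 3 had 11 and 25, for the small and the large subunit. Genes of the bacterial number series, up to 21 for the small and 36 for the large subunit, were occupied in 22 of 42 cases (52.4%), and genes with higher numbers in 16 of 31 (51.6%).

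Apart from the L1 stalk, each functional part of the large subunit held occupied and unoccupied genes. In bacteria, L1 forms the stalk through which spent tRNA leaves, L10, L11 and L12 build the stalk that receives translation factors, L2, L3, L16 and L27 lie at or near the peptidyl transferase centre, and L4, L22, L23 and L24 line or border the exit tunnel. Of their fly counterparts mRpL1, mRpL11, mRpL16, mRpL23, mRpL24 and mRpL27 were occupied, while mRpL2, mRpL3, mRpL4, mRpL10, mRpL12 and mRpL22 were not. The other occupied large subunit genes were mRpL13, mRpL18, mRpL20, mRpL21, mRpL32, mRpL33, mRpL34, mRpL35, mRpL37, mRpL41, mRpL42, mRpL43, mRpL44, mRpL47, mRpL48, mRpL50, mRpL51, mRpL53, mRpL54 and mRpL55.

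The occupied mRp genes did not stand out by signal, apart from 4 of them. Signal is the authors' value per peak, of unstated scale, and serves only to rank and describe peaks. The median over the strongest promoter peak of each occupied gene was 298.4 for mRp genes and 329.5 for other occupied genes, with mRp values between 170.0 and 3829. In the strongest peaks of replicate 2 the medians were 135.9 for mRp genes and 152.8 for other genes, and in replicate 3 they were 157.5 and 188.3. The mRp median was thus slightly lower in all 3 lists.

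The 4 strong peaks ranked among the first 40 of the list and were close in strength in both replicates. At mRpS23 (FBgn0260407, chr2L:13835254-13835658) the peak ranked 15 with a signal of 3829, and had 1717 in replicate 2 and 2124 in replicate 3. At mRpS10 (FBgn0038307, chr3R:15229321-15229740) it ranked 20 with 3324, and had 1740 in replicate 2 and 1593 in replicate 3. At mRpL41 (FBgn0034001, chr2R:15217566-15218014) it ranked 25 with 3158, and had 1531 in replicate 2 and 1638 in replicate 3. The first 2 belong to small subunit genes and the third to a mitochondria-specific protein of the large subunit. At mRpL23 (FBgn0035335, chr3L:2373423-2373815) the peak ranked 40 with 2790, and had 1411 in replicate 2 and 1387 in replicate 3. The next mRp gene, mRpL47, ranked 639 with 725.7, so a wide gap set these 4 apart from all others.

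Each of the 4 strong peaks was shared with a neighbour. The summit at mRpS23 lay 383 bp upstream of its TSS and 109 bp from that of CenG1A, a GTPase with an Arf GAP domain. The summit at mRpS10 lay 146 bp upstream and 111 bp from Art3, a protein arginine methyltransferase gene. For mRpL41 the distances were 145 bp upstream and 617 bp to CG8079, and for mRpL23 they were 64 bp downstream of the nearest of its TSSs and 114 bp to CG9004. The mRp gene was the nearer one in the last 2 cases. Of the motifs described further on, only TATAAA occurred within 50 bp of any of the 4 summits, at mRpL23.

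**Figure D1:**
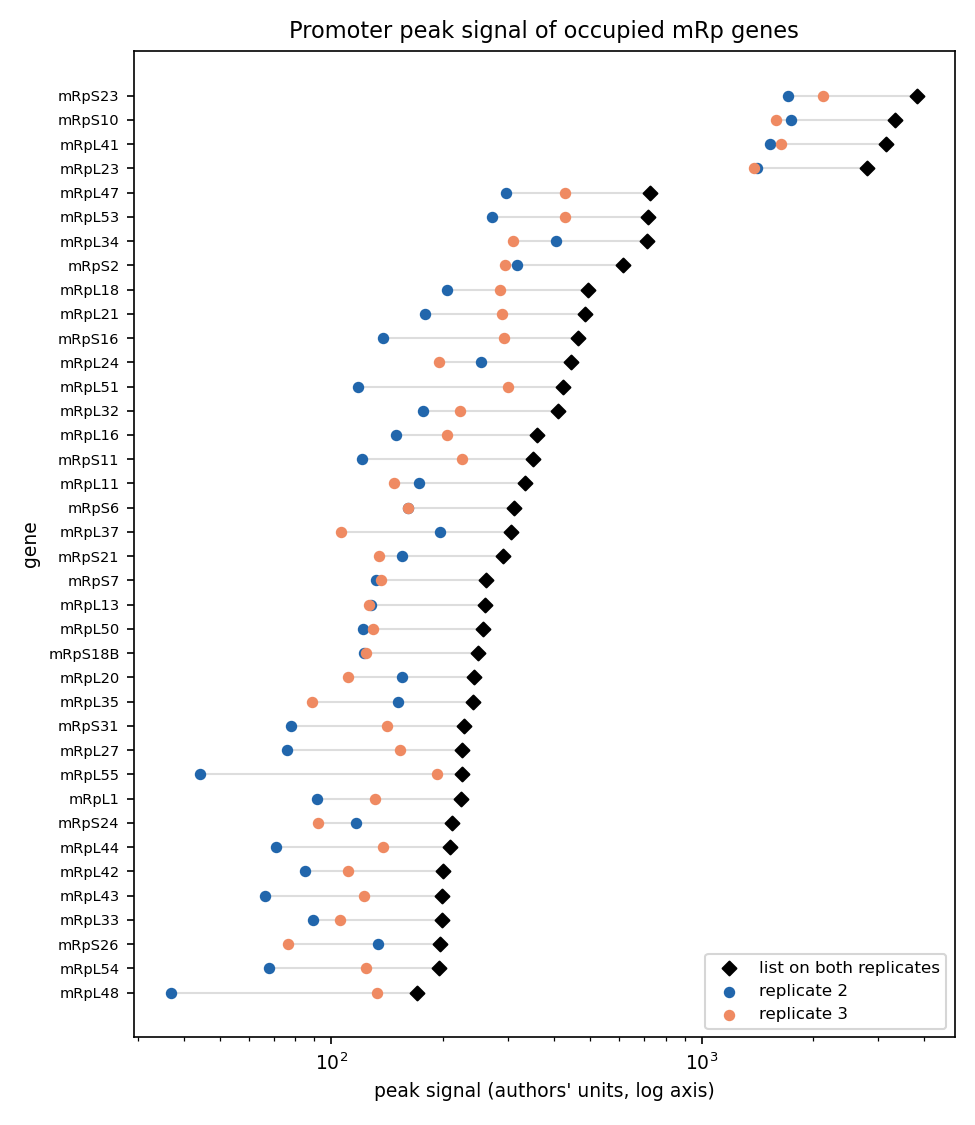
Peak signal on the authors' scale (log axis) for each of the 38 occupied mRp genes, strongest at the top: diamonds give the peak of the optimal list, circles the strongest overlapping peak of replicate 2 (blue) and replicate 3 (orange). The peaks of mRpS23, mRpS10, mRpL41 and mRpL23 stand at 2790 or above, and all others at 725.7 or below.

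The next 8 peaks had signals between 445.0 and 725.7, all in mixed company with other genes. For mRpL47 the peak (chr3R:9515865-9516093) had 296.1 in replicate 2 and 429.2 in replicate 3, with the summit 72 bp upstream and 27 bp from CG8176. For mRpL53 the peak (chr2R:13954033-13954276, signal 716.8) had 272.1 and 427.8, and the summit lay 43 bp upstream of a TSS that mRpL53 shares with CG33155. On the other side of that summit starts AGO1, the Argonaute protein of the microRNA pathway, 170 bp from the mRpL53 start. For mRpL34 the peak (chr2R:16098572-16098898, signal 713.3) had 405.3 and 309.1, 213 bp upstream and 171 bp from Dg, the dystroglycan gene. For mRpS2 the peak (chr2L:4850477-4850736, signal 613.3) had 318.3 and 294.9, 204 bp upstream but only 18 bp from Mon1, a gene of endosome maturation.

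At the remaining 4 of the 12 strongest the summit was again nearer to the neighbour than to the mRp gene. For mRpL18 the peak (chr2R:12756197-12756420, signal 494.0) had 205.0 in replicate 2 and 284.9 in replicate 3, 130 bp upstream and 110 bp from Taz, which encodes the cardiolipin-remodelling enzyme tafazzin. For mRpL21 the peak (chr3L:19255139-19255361, signal 484.1) had 178.9 and 290.0, 222 bp upstream and 57 bp from rept, an ATPase of chromatin-remodelling complexes. For mRpS16 the peak (chr2R:14173555-14173728, signal 465.2) had 138.3 and 292.5, 78 bp upstream and 19 bp from cg, a zinc-finger transcription factor gene. These 3 were all higher in replicate 3. For mRpL24 the peak (chr2L:4945342-4945639, signal 445.0) had 253.7 and 195.1, 134 bp upstream and 84 bp from betaggt-I, a geranylgeranyl transferase subunit gene, and was higher in replicate 2.

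The replicates gave fairly close signal at the 4 strong peaks and varied at many of the others. Some weaker peaks were as close or closer, such as that of mRpS6 (160.8 in replicate 2 and 161.6 in replicate 3). Every occupied mRp gene had an overlapping peak in the relaxed lists of both replicates, 30000 peaks each. Of 4322 other occupied genes 158 lacked one in replicate 2 (3.66%) and 25 in replicate 3 (0.578%). Shares this low cannot be told apart from 0 of 38. Signal in replicate 3 over that in replicate 2, as a log2 ratio, had a median of 0.27 over the mRp genes (SD 0.68, n = 38 genes) and 0.31 over other occupied genes (SD 0.72, n = 4139). Across genes, which share libraries and in part summits, Spearman's rho between the replicates was 0.614 for mRp genes and 0.731 for other genes. The mRp genes thus varied about as much between replicates as the rest.

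The widest differences between replicates fell on peaks of middling or low signal. Replicate 3 was most above replicate 2 at mRpL55 (193.1 in replicate 3 and 44.3 in replicate 2, log2 ratio 2.13), mRpL48 (132.6 and 37.0, 1.84) and mRpL51 (300.1 and 118.4, 1.34). Replicate 3 was most below replicate 2 at mRpL37 (106.0 in replicate 3 and 196.4 in replicate 2, log2 ratio -0.89), mRpS26 (76.4 and 133.5, -0.81) and mRpL35 (88.5 and 151.6, -0.78). Of these 6, mRpL55, mRpL48, mRpS26 and mRpL35 were each occupied in only 1 of the replicate lists.

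**Figure D2:**
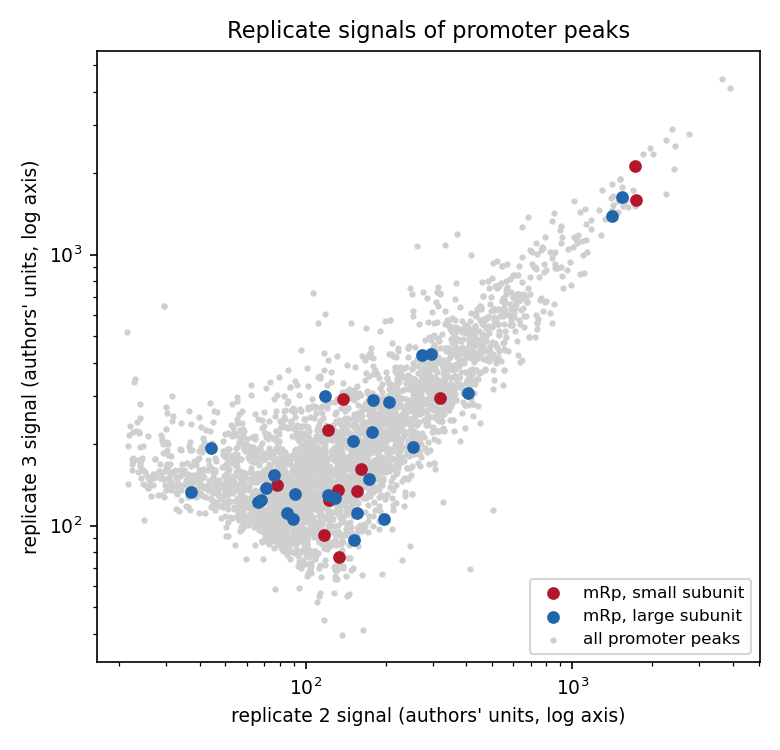
Signal in replicate 3 against replicate 2 (authors' units, both axes log) for peaks of the optimal list at promoters: red points are small subunit mRp genes, blue points large subunit mRp genes, grey points all promoter peaks. The 4 strong mRp peaks sit at the upper right with fairly close values, and the others spread among the grey points, down to mRpL48 with 37.0 in replicate 2 and 132.6 in replicate 3.

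Medea summits lay mostly just upstream of the mRp start. The median position relative to the TSS, negative upstream, was -132 bp for mRp genes and -100.5 bp for other occupied genes, with quartiles of -218 and -52 bp for mRp genes and -247 and -28 bp for the others. Summits were upstream in 33 of 38 mRp genes (86.8%) and in 82.4% of other occupied genes, and within 250 bp in 30 (78.9%) and 68.6%. Within 400 bp there were 35 of 38 (92.1%), against 79.5% for other genes, but the median distance was alike, 140 bp for mRp genes and 130 bp for others.

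The exceptions were mRpL27, mRpL55 and mRpL33. The strongest peak at mRpL27 (signal 225.8) had its summit 737 bp downstream, 501 bp from the start of RpL27A, a cytosolic ribosomal protein gene, but a second peak (199.7) lay 179 bp upstream. For mRpL55 the only summit was 649 bp downstream, 14 bp from the start of cdi, and for mRpL33 it was 591 bp upstream, 196 bp from norpA, the phospholipase C of phototransduction. By their nearest summit, mRpL55 and mRpL33 were the occupied mRp genes closest to the limit of 1000 bp. Just outside it were mRpS35 at 1277 bp and mRpS18A at 1477 bp.

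All 38 occupied mRp genes shared the summit of their strongest peak with at least 1 other protein-coding gene, as 61.5% of other occupied genes did. The mRp gene had the nearest TSS in 15 of 38 cases (39.5%), against 68.1% for other occupied genes. For mRpL13 and mRpL53 of these 15 the neighbour, CG10602 or CG33155, has the very same TSS. When each summit was given to its nearest TSS only, 15 of 73 mRp genes (20.5%) were occupied, against 22.3% of other genes, a ratio of 0.923. The excess over other genes was thus not seen under this assignment.

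The head-to-head arrangement is itself common among mRp genes. It was scored where the nearest opposite-strand TSS of another protein-coding gene lay upstream within 1000 bp. It held for 58 of 73 mRp genes (79.5%) and for 4887 of 13872 other genes (35.2%), at a median separation of 283 bp for mRp pairs and 298 bp for others. Separations of mRp pairs ran between 20 and 793 bp, and no partner was itself an mRp gene.

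Occupancy was higher with this arrangement, in mRp genes and in other genes alike. A summit in reach of both starts was counted for both genes of a pair. Of the 58 head-to-head mRp genes 37 were occupied (63.8%), against 51.8% of other head-to-head genes. Of the 15 mRp genes without such a partner only mRpL13 was occupied (6.67%), against 19.9% of other genes without one. In replicate 2 the head-to-head shares were 67.2% for mRp genes and 50.6% for others, and in replicate 3 they were 60.3% and 51.4%. Both replicates again had 1 of 15 among the rest, with 18.2% of other genes in replicate 2 and 20.96% in replicate 3.

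**Figure D3:**
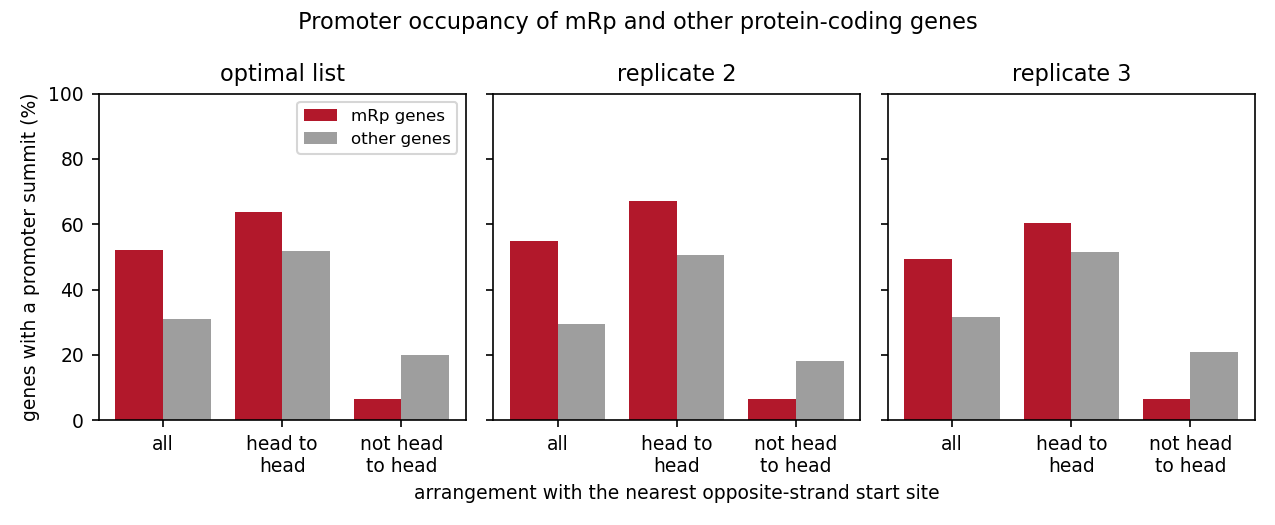
Percent of genes with a promoter summit for mRp genes (red) and other protein-coding genes (grey), over all genes, head-to-head genes and the remaining genes, in the optimal list and in the strongest peaks of each replicate. The red bars are higher over all genes (52.1% against 31.2% in the optimal list) and for head-to-head genes (63.8% against 51.8%), and lower for the rest (6.67% against 19.9%).

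The pairs were also split by the separation of their start sites. At up to 250 bp, 16 of 25 mRp genes (64.0%) and 52.8% of other genes were occupied, and above 250 and up to 500 bp, 20 of 28 (71.4%) and 56.5%. In replicate 3 both classes had nearly the same share, 64.0% and 64.3% for mRp genes and 54.0% and 53.8% for others. Above 500 bp it was 1 of 5 mRp genes, mRpL41, and 43.5% of other genes; mRpL3, mRpL4, mRpS25 and mRpS29 had none. Weighting the other genes to the mRp genes' share with an opposite-strand neighbour raised their occupancy to 45.1% and lowered the ratio to 1.15. Weighting them by arrangement and separation together, a choice made after seeing the data, gave 46.7% and 1.11.

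The remaining difference depended on which genes served as comparison. The mRp genes are short, with a median length of 909 bp against 2180 bp for other genes, and 91.8% of them have 1 annotated TSS, against 73.4%. Other genes weighted to the mRp genes' TSS numbers had 26.5% occupancy, for a ratio of 1.97. Among genes of 1 TSS and under 2000 bp, chosen after seeing the data, 33 of 52 head-to-head mRp genes (63.5%) were occupied, against 39.1% of 1791 other head-to-head genes. In replicate 2 these shares were 65.4% for mRp genes and 38.0% for others, and in replicate 3 they were 59.6% and 38.6%. Without a head-to-head partner, 1 of 13 such mRp genes (7.69%) and 8.73% of other genes were occupied. What sets the head-to-head mRp genes apart from other short ones was not tested.

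In most pairs the summit fell between the start sites. That was so for 28 of 37 occupied head-to-head mRp genes (75.7%) and for 66.9% of other occupied head-to-head genes. The summit lay beyond the partner's start in 4 mRp pairs, those of mRpL11, mRpL18, mRpL33 and mRpL51, and on the mRp side in 5, those of mRpL23, mRpL27, mRpL42, mRpL55 and mRpS18B. It was nearer to the mRp start in 16 of 37 pairs (43.2%), and among other genes nearer to the gene's own start in 53.2%. A pair of other genes could be counted from both sides, with the same summit nearer to 1 gene and farther from its partner. The 53.2% is therefore not an independent benchmark for the mRp pairs. A peak between both start sites cannot be given to 1 gene of the pair from these data.

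The partners are of varied function. Several serve mitochondria: Mitofilin (with mRpL35) shapes the cristae, HtrA2 (mRpL11) is a protease of the intermembrane space, Taz (mRpL18) remodels cardiolipin, ATPsynD (mRpL55) is an ATP synthase subunit and qless (mRpL32) makes the side chain of ubiquinone. Others act in the nucleus or cell cycle: Cdk1 (mRpS7) is the mitotic kinase, Snr1 (mRpL44) a Brahma complex subunit, trr (mRpL16) a histone methyltransferase and Ns1 (mRpS11) a nucleolar GTPase. These were picked from the 37 pairs by their known roles and not by a count.

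The summits divided the pairs differently. At mRpS7 the summit was 197 bp from the mRp start and 203 bp from Cdk1, close to the midpoint, whereas at mRpL44 it was 254 bp away and 36 bp from Snr1. At mRpS11 it lay 7 bp from the mRp start and 50 bp from Ns1. At mRpL1, mRpL50 and mRpS6 the summit was 68, 46 and 41 bp from the mRp start, with the neighbours CG9626, mei-P22 and Cip4 at 394, 409 and 407 bp. The summits of mRp pairs thus covered the whole stretch, without a fixed distance to either start.

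**Figure D4:**
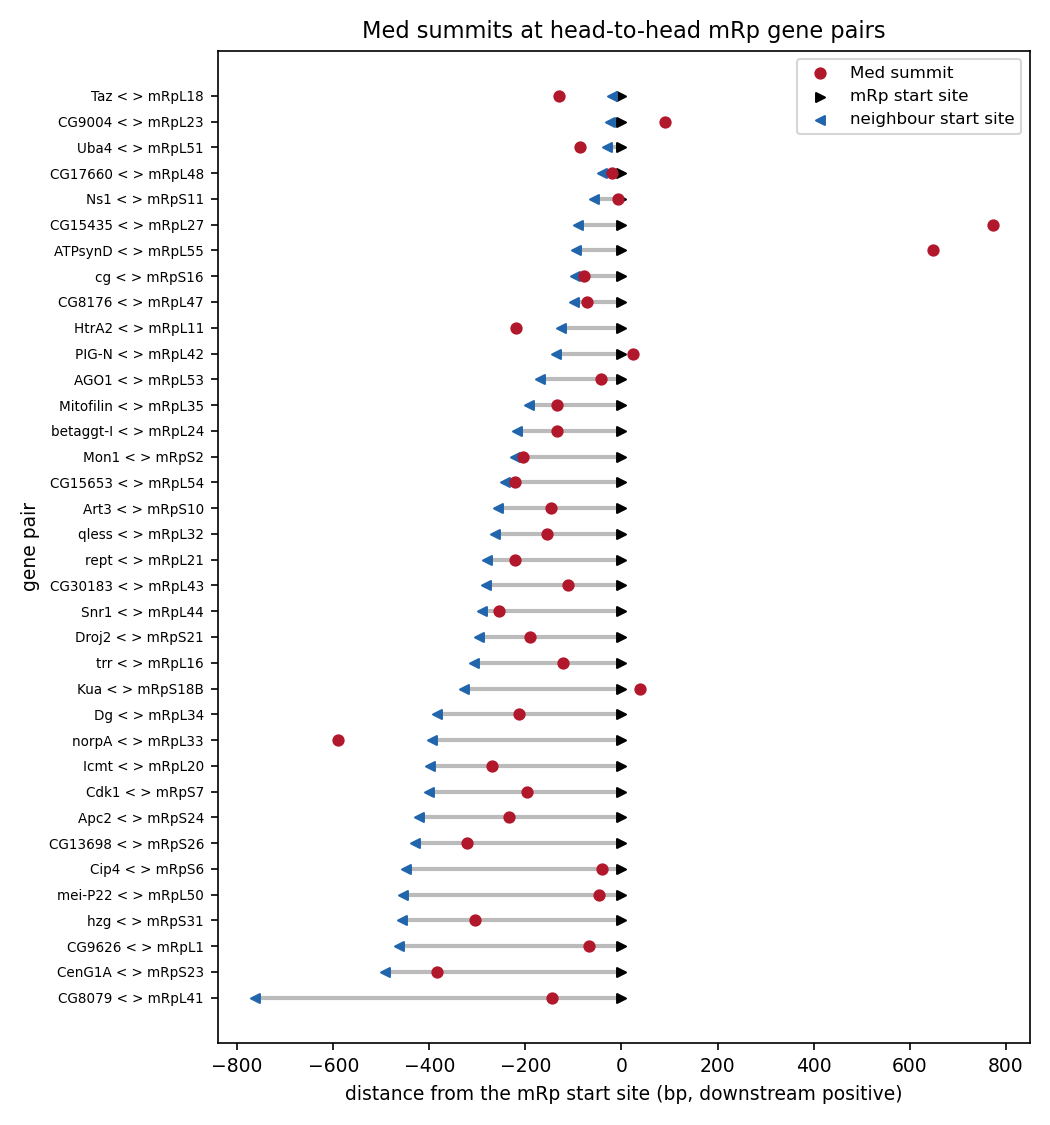
Position of the Medea summit (red) in 36 of the 37 occupied head-to-head mRp pairs, in bp from the mRp start site (black, at 0), with the neighbour's start site in blue and pairs ordered by separation, the narrowest at the top. In 27 of the 36 pairs drawn the summit lies between the start sites, and the far points to the right are mRpL27 and mRpL55.

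The remaining occupied pairs had weaker peaks. Their signals ran down to 170.0 at mRpL48, with mRpL20 (partner Icmt, separation 399 bp), mRpL42 (PIG-N, 136 bp), mRpL43 (CG30183, 281 bp), mRpL54 (CG15653, 242 bp), mRpS18B (Kua, 328 bp), mRpS21 (Droj2, 297 bp), mRpS24 (Apc2, 421 bp), mRpS26 (CG13698, 430 bp) and mRpS31 (hzg, 457 bp) all under 300. At mRpL54 the summit was 20 bp from the start of CG15653 and 222 bp from that of mRpL54.

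Most of the 35 mRp genes without a summit in the optimal list had one in a relaxed list, as did most other such genes. In the relaxed list of at least 1 replicate 31 of them (88.6%) had a promoter summit, against 62.1% of 9550 other genes without one, and in both relaxed lists 21 (60.0%), against 28.4%. A relaxed list admits weak peaks: over all mRp genes 60 (82.2%) had a promoter summit in that of replicate 2, against 60.5% of other genes, and 68 (93.2%) in that of replicate 3, against 63.1%, so the background is high. The 21 genes were mRpL2, mRpL3, mRpL9, mRpL12, mRpL17, mRpL19, mRpL22, mRpL28, mRpL36, mRpL45, mRpL52, mRpS5, mRpS9, mRpS14, mRpS17, mRpS18A, mRpS22, mRpS25, mRpS30, mRpS33 and mRpS35.

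A promoter summit in the relaxed list of 1 replicate only was found for 10 mRp genes. Replicate 3 alone had it at mRpL14, mRpL30, mRpL38, mRpL39, mRpL46, mRpL49, mRpS18C, mRpS28 and mRpS34, with the highest signal, 120.9, at mRpS18C. Replicate 2 alone had it at mRpS29, whose counterpart in mammals is called DAP3. Neither relaxed list had a promoter summit at mRpL4, mRpL10, mRpL15 or mRpL40. Of these 4, mRpL15 starts 41 bp from CtIP and mRpL4 793 bp from CG4440, while mRpL10 and mRpL40 have no opposite-strand partner.

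By chromosome arm the numbers of mRp genes are small. On X 2 of 11, mRpL16 and mRpL33, were occupied (18.2%), against 31.5% of other genes on X. Replicate 2 had 3 on X (27.3%), near the 32.8% of other genes, and replicate 3 had 2, against 30.9%. On 2L 9 of 12 mRp genes were occupied, against 29.1% of other genes, on 2R 8 of 12, against 30.4%, on 3L 7 of 17, against 31.6%, and on 3R 12 of 21, against 33.1%. Of the unoccupied genes on X, mRpL3, mRpL22, mRpL30, mRpL38, mRpS14, mRpS25 and mRpS30 are head to head. No test was made between arms.

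Sequence motifs were counted on both strands within 50 bp to either side of the summit, for 38 mRp summits and 3619 other promoter summits. The Smad motifs searched were not found at the mRp summits, and other forms of Smad site were not searched. GCCGNCGC, a Mad site, occurred in 0 of 38 windows, against 0.884% of other windows, and the Smad palindrome GTCTAGAC in 0 of 38, against 0.138%. A count of 0 of 38 allows a share of up to 7.89% (3 windows), which is above the shares at other summits, so no difference was detectable. It says only that these letters are not in these windows. From 250 bp upstream to 50 bp downstream of the outermost TSS, the Mad site occurred in 3 of 73 mRp promoters (4.11%), with 3.17% over all promoters.

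The other motifs searched had counts at the mRp summits too low to set apart from those at other summits. The DRE TATCGATA was found in 1 of 38 windows (2.63%), against 5.31% of other windows, the motif 1 core GGTCACAC in 1, against 3.40%, and the E-box CACGTG in 1, against 1.44%. The GAGA motif GAGAGA occurred in 0 windows, against 4.12%, the NRF1 core GCATGCGC in 0, against 0.249%, and TATAAA in 6 (15.8%), against 13.5%. The E-box CAGCTG occurred in 4 (10.5%), against 6.91%. The median GC content of the windows was 37.6% at mRp summits and 40.6% at other promoter summits.

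The E-box CAGCTG was frequent in mRp promoters as a whole, mostly beside the start site. In windows of 250 bp upstream to 50 bp downstream of the outermost TSS it occurred in 40 of 73 mRp genes (54.8%) and in 17.5% of other genes, with 17.7% over all promoters. It lay within 50 bp of the TSS in 35 mRp genes (47.9%) and in 9.35% of other genes. The median position of the 45 boxes was +4 bp in mRp promoters, with quartiles of -31 and 18 bp, and -50 bp in other promoters. Around the summit the box was in 10.5% of mRp windows within 50 bp, against 6.91% of other windows. Within 150 bp it was in 19 of 38 (50%), against 19.9%. The median mRp summit lay 140 bp from the TSS, so these wider windows often reached the start site.

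**Figure D5:**
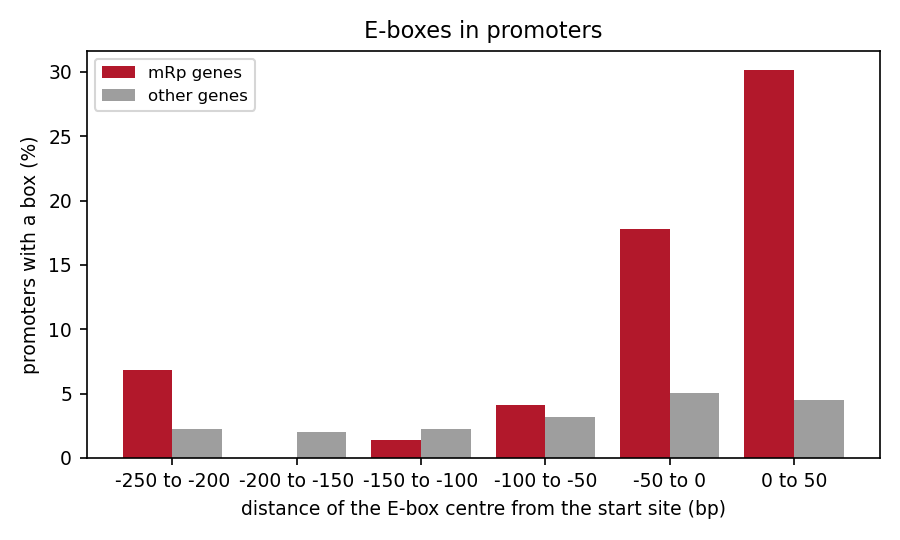
Percent of promoters with the E-box in each 50 bp bin from 250 bp upstream to 50 bp downstream of the outermost start site, for 73 mRp genes (red) and 13872 other protein-coding genes (grey). In mRp genes 17.8% have a box in the last 50 bp before the start and 30.1% in the first 50 bp after it, against 5.05% and 4.50% in other genes.

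Boxes occurred in mRp promoters both with and without Medea. Among mRp genes 23 of 38 occupied (60.5%) and 17 of 35 unoccupied ones (48.6%) had a box. In the 23 occupied genes the nearest box was a median of 132 bp from the summit (15 to 632 bp), and within 50 bp in 4 of them, mRpL48, mRpL54, mRpS2 and mRpS18B. Of mRp genes with a box 57.5% were occupied and of those without 45.5%, and among other genes 38.4% and 29.6%. In replicate 2 the mRp counts were 22 of 40 with a box and 18 of 33 without one, nearly equal shares, and in replicate 3 they were 22 and 14.

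The boxes were also counted in 2 related gene sets. A CAGCTG box was found in 8 of 88 genes of cytosolic ribosomal proteins (9.09%) and in 7 of 15 genes of mitochondrial aminoacyl-tRNA synthetases (46.7%). The DRE was found in 5 of 38 occupied (13.2%) and 10 of 35 unoccupied mRp promoters (28.6%), with 9.37% over all promoters. Over all genes the order was the other way, with 14.7% of occupied and 6.95% of unoccupied promoters. The mRp counts are small, and this difference was not tested.

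Genes that work with the mitochondrial ribosome were occupied to varied degrees, always to be read against 31.3% over all genes. Of the mitoribosomal proteins with other symbols, tko (the S12 protein) was occupied (signal 303.1, summit 18 bp upstream) and bonsai (the S15 protein) was not. Of 15 mitochondrial aminoacyl-tRNA synthetase genes 4 were occupied (26.7%): ArgRS-m, LeuRS-m, PheRS-m and SerRS-m. Of 9 mitochondrial translation factor genes 3 were, namely mEFTs, mEFTu2 and mRF1. Of 14 genes for upkeep of mitochondrial DNA and RNA 6 were (42.9%): PolG2, PolrMT, SLIRP1, SLIRP2, bsf and mtSSB. The strongest of these 6 was SLIRP2, an RNA-stabilising protein gene, with 2415, close to the 4 strong mRp peaks in size.

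The share and the signal of mRp genes were below those of cytosolic ribosomal protein genes. Of the mRp genes 38 of 73 were occupied, with a median signal of 298.4, against 69 of 88 cytosolic ribosomal protein genes (78.4%), with a median of 565.6. The cytosolic counts were 71 in replicate 2 and 69 in replicate 3. The mRp genes lay between the cytosolic ribosomal protein genes and the mitochondrial synthetases in share of occupied genes in all 3 lists, at 52.1%, 54.8% and 49.3%.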

How the data were processed

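Peak lists of 2 biological replicates of 1 group were used. Per the labels, chromatin was sheared to 200 to 800 bp and precipitated with an anti-GFP antibody. Per the deposited manifests, the authors called peaks per replicate against 1 control file and made an optimal list over both replicates thresholded by the irreproducible discovery rate, in build dm6. Aligner, caller, versions and threshold were not given in the sources used here. Peaks were ranked within a list by the signal deposited by the authors, whose scale is unstated. Read depth is unknown, and Wilson 95% intervals cover counting error only.

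Genes and start sites came from the Ensembl BDGP6.54 annotation, release 115, and sequence from the RefSeq Release 6 assembly. Summits within 1000 bp of any TSS were promoter summits, counted for every gene in reach. Replicates were compared over their 5867 strongest peaks, and the strongest relaxed peak that overlapped gave a replicate's signal. No peak was identical in position and signal between replicates. The members, gene lists and motifs were chosen with earlier results of these data known. Every mRp gene was named by its occupancy, and the 12 with the strongest peak, the 2 nearest to 1000 bp on each side and the 3 largest and smallest replicate ratios with values. The SLIRP2 peak, the pairs with named roles, the genes on X and the E-box positions were chosen after their values were seen. The symbols Dap3, mEFG2 and Twinkle were not matched. The dm3 lists were not used here, and 1 gene pair is not reported here.

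The counting was tested on simulated data: of 200 planted promoter summits 200 were recovered with their offset, and of the planted distal summits 0 were called. Summits were planted only at start sites far from any other, so the counting of shared summits was not checked. Python 3.11.15 with numpy 2.4.6, pandas 2.3.3, scipy 1.17.1, statsmodels 0.14.6 and matplotlib 3.10.9 were used.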

Additional observations from a re-analysis of the deposited data

How the results depend on the processing

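The mRp share exceeded that of other genes, a ratio of 1.67 from 38 mRp genes, under every peak list and distance tried, but not under each way of assigning summits or choosing the comparison genes. Without either replicate the ratio was 1.56 to 1.85, the count 36 to 40 and the ratio of median signals 0.837 to 0.890. The strongest peaks of the optimal list, its upper part of 2933 peaks, left 20 occupied mRp genes (27.4%, against 18.6% of other genes). A TSS inside the peak gave 18 genes and a ratio of 1.35, and the nearest TSS only gave 15 genes and a ratio of 0.923. The full relaxed lists gave 60 genes (ratio 1.36) and 68 (ratio 1.48). The ratio was 1.97 with other genes weighted by TSS number, 1.15 by opposite-strand neighbours and 1.11 by arrangement and separation. Among short genes of 1 TSS it was 1.62 for those head to head. For those not head to head it was 0.882, from 1 occupied mRp gene of 13. The ratio of median signals, 0.906, became 0.997 in the upper part of the list, 0.847 where both replicates had the summit, 0.954 at 500 bp, 1.02 at 2000 bp, 0.952 with the TSS inside the peak and 0.830 with the nearest TSS only. The median summit position became -70 bp with the TSS inside the peak and -46 bp with the nearest TSS only, and -136 to -124.5 bp without a replicate. Related lists moved little without a replicate: 69 to 71 cytosolic ribosomal protein genes, 3 to 4 synthetases, 2 to 3 translation factors, 6 to 7 maintenance genes, and 1 of the mitoribosomal proteins with other symbols. Within 150 bp of the summit the DRE occurred at 4 mRp summits (10.5%, against 10.7% of other promoter summits), motif 1 at 5 (13.2%, against 8.65%) and CACGTG at 5 (13.2%, against 4.50%). CAGCTG occurred there at 19 of 38 (50%, against 19.9%), GAGA at 4 (10.5%, against 15.2%) and TATAAA at 14 (36.8%, against 38.1%). In the same windows the Mad site, the Smad palindrome and the NRF1 core occurred at 0 mRp summits, against 3.79%, 0.166% and 0.774%. The ratios for relaxed lists, for arrangement and separation and for short genes, the summit positions and the related lists were alternatives chosen after seeing the data. The cause of these shifts was not tested. No paired analysis was possible because there was 1 group and no contrast. Depth is unknown, so an unoccupied gene is one without a summit in these lists.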
